A study of Mus musculus with 16 samples.

Results

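Chemokines are small secreted proteins that draw leukocytes towards their source, and microglia make several of them. Reported here are the messages of 9 chemokine ligands in microglia, chosen by gene symbol from a set of 10: Ccl3, Ccl4, Ccl5, Ccl6, Ccl9, Ccl2, Ccl7, Ccl12 and Cxcl16. Cxcl2 was not analysed here. The 9 genes were among 20267 in the gene table, and all 9 were among the 13912 genes that reached 1 CPM (reads scaled to the size of the library) in at least 4 libraries and were tested.

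Live CD11b+ P2ry12+ cells, about 10000 per mouse, were sorted from the brains of 11-month-old C57BL/6J mice and sequenced as bulk RNA, with 1 library per mouse and 4 mice per group. AD p38KO mice carried APPswe/PS1dE9+/-, p38fl/fl and Cx3cr1-creERT2+/-. AD p38+/+ mice carried APPswe/PS1dE9+/- and p38fl/fl without Cre. WT p38KO mice had p38fl/fl and Cx3cr1-creERT2+/- without the APPswe/PS1dE9 transgenes, and WT p38+/+ mice had p38fl/fl alone. All 4 groups received tamoxifen in the diet for 4 weeks from 5 months of age, and all carried the floxed allele, whose loxP sites flank exon 1 of the p38α gene Mapk14. The Cre was driven from the Cx3cr1 locus, which is also active in myeloid cells other than microglia, and it replaced 1 copy of Cx3cr1. Both p38KO groups were thus also heterozygous for this chemokine receptor, so loss of p38α and loss of 1 Cx3cr1 copy cannot be told apart. Of the 16 mice 11 were male and 5 female, with 1 female in each group except WT p38KO, which had 2.

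Mapk14 summed over its transcripts had 142 to 166 CPM in AD p38KO mice, against 152 to 173 CPM in AD p38+/+ mice, and 138 to 169 CPM in WT p38KO mice, against 162 to 210.2 CPM in WT p38+/+ mice. These sums take in all exons and so do not check the deletion of 1 of them. A single annotated Mapk14 transcript (ENSMUST00000062694), singled out after its values were seen, separated the p38 labels in every library, with 0.0574 to 0.248 CPM in AD p38KO mice, against 58.5 to 71.0 CPM in AD p38+/+ mice. In WT p38KO mice it had 0.0589 to 0.214 CPM, against 47.1 to 82.6 CPM in WT p38+/+ mice. The 10 microglial markers were all present and summed to between 55754 and 67961 CPM in the 16 libraries, with Csf1r among the most abundant. Each library held 12.3 to 16.4 reads per CPM, so that a count of 3 reads, the limit that a count of 0 allows, stood at 0.183 to 0.245 CPM (counting error only). AD p38KO libraries had the fewest genes detected, 15487 to 16855, against 16992 to 18058 in the other groups, and AD p38KO mice 1 and 4 stood apart from all others on the leading principal components. Results that rest on these libraries are therefore also given without them.

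These ligands have a cysteine pair near the start of the mature protein that gives the CC and CXC families their names, and they act through G protein-coupled receptors. Ccl3, Ccl4 and Ccl5 are inflammatory ligands that draw macrophages and T cells, and Ccl3 and Ccl5 act in part through Ccr1. Ccl6 and Ccl9 are rodent ligands of Ccr1. Ccl2, Ccl7 and Ccl12 bind Ccr2 and draw monocytes out of the blood, and Cxcl16 is a membrane-bound ligand of Cxcr6 that proteases such as Adam10 can shed. Ccl3, Ccl4 and Ccl6 are known to be raised in microglia around amyloid plaques, and p38α, a kinase that responds to stress and cytokines, is known in macrophages for prolonging the life of inflammatory messages.

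All 9 genes lie on mouse chromosome 11 (GRCm38), most of them in clusters of neighbouring ligands. The window around the cysteine codons is shown for 8 of them because it is the feature that separates Cxcl16 from the rest. Sequences run 5′ to 3′ on the coding strand, are from the GRCm38 genome with GENCODE M21 gene models, and the cysteine codons are in capitals. In the 8 CC ligands the codons are adjacent, and in Cxcl16 1 other codon stands between them. The codons lie in exon 3 of Ccl6 and Ccl9 and in exon 2 of the other 7 genes.
Cxcl16, chr11:70459115-70459147, minus strand: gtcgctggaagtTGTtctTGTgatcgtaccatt
Ccl2, chr11:82036494-82036523, plus strand: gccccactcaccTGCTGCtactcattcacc
Ccl7, chr11:82046526-82046555, plus strand: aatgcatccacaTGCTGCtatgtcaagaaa
Ccl12, chr11:82102622-82102651, plus strand: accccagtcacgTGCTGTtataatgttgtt
Ccl5, chr11:83529230-83529259, minus strand: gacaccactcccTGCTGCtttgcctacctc
Ccl9, chr11:83575914-83575943, minus strand: gactcttcagatTGCTGCctgtcctataac
Ccl6, chr11:83589374-83589403, minus strand: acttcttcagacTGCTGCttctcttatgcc
Ccl4, chr11:83663470-83663499, plus strand: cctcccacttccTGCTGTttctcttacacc
Cxcl16 spans chr11:70453983-70459984 on the minus strand. Ccl2 (chr11:82035571-82037453), Ccl7 (chr11:82045712-82047525) and Ccl12 (chr11:82101845-82103400) follow each other on the plus strand. Ccl5 (chr11:83525778-83530518), Ccl9 (chr11:83572919-83578636), Ccl6 (chr11:83587882-83593087) and Ccl3 (chr11:83647844-83649355) lie on the minus strand, next to Ccl4 (chr11:83662584-83664683) on the plus strand. Over the coding sequence, Ccl3 and Ccl4 were identical at 69.5% of aligned bases, and Ccl6 and Ccl9 at 66.8%. Over whole transcripts, Ccl3 and Ccl4 shared no identical run longer than 9 bases. The longest run of any pair, 25 bases, was shared by the transcripts of Ccl6 and Ccl9. Those of Ccl2 and Ccl7 shared a run of 23 bases.

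The 250 bases before the start of the gene were available from RefSeq (GRCm38.p6) for 4 of the 9 genes, Ccl3, Ccl6, Ccl9 and Ccl12. The first 3 are shown because Ccl6 and Ccl9 are neighbours of which only Ccl6 was called between AD and WT mice, and Ccl3 was also called. The difference between the changes of Ccl6 and Ccl9 was not tested, nor was any part of these sequences in it. Capitals mark matches on either strand to a PU.1 motif (GGAAGT), the NF-kB consensus, an AP-1 motif (TGANTCA) or TATAAA, and a match is a description and not a known binding site.
Ccl3, chr11:83649379-83649628, minus strand: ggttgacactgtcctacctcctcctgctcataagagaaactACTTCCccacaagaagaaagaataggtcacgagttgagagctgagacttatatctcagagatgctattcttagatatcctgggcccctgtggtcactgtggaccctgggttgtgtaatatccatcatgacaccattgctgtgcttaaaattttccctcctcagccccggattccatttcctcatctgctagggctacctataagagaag
Ccl6, chr11:83593088-83593337, minus strand: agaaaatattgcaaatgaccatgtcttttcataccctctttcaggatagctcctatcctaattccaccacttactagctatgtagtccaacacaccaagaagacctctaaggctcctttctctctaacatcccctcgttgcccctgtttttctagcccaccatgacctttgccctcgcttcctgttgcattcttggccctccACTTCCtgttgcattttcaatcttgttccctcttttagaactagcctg
Ccl9, chr11:83578637-83578886, minus strand: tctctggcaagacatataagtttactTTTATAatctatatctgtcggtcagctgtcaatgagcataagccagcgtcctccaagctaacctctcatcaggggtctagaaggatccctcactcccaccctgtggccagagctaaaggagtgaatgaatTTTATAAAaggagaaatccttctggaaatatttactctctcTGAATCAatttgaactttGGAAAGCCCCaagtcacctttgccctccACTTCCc
Each of the 3 windows held a PU.1 match, which 19.7% of all 32851 promoter windows of this length held. The window of Ccl12, which was not called between AD and WT mice, also held PU.1 matches. In the 3 windows shown the PU.1 match lay 209 to 204 bases before the start in Ccl3, 48 to 43 in Ccl6 and 7 to 2 in Ccl9. Among the 3, an NF-kB match (3.9% of all windows, 35 to 26 bases before the start) and an AP-1 match (6.75% of all windows, 53 to 47 bases before the start) occurred in the Ccl9 window alone. Ccl9 also held TATAAA (12.4% of all windows) at 224 to 219 bases and, in 2 overlapping copies on opposite strands, at 94 to 87 bases before the start. Ccl6 and Ccl9 shared a run of 13 bases that takes in the PU.1 match of each, whereas the other pairs among the 3 windows shared at most 8.

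Means below are followed by the SD over the 4 mice of the group (n = 4 throughout). Per kilobase of transcript, Ccl6 was the most abundant of the 9 messages in 3 of the 4 groups, with 411 ± 48.2 CPM per kb in AD p38KO mice and 151 ± 36.3 CPM per kb in WT p38+/+ mice. Ccl12 was next in both, with 122 ± 26.1 CPM per kb in AD p38KO mice and 87.0 ± 18.7 CPM per kb in WT p38+/+ mice. In WT p38KO mice the mean of Ccl12, 169 ± 123 CPM per kb, was above that of Ccl6, 160.2 ± 24.1 CPM per kb, through mouse 2 alone. The order below these 2 differed with the background. In AD p38KO mice Ccl3 (90.3 ± 51.9 CPM per kb) and Ccl4 (71.4 ± 23.7 CPM per kb) stood above Cxcl16 (33.5 ± 3.56 CPM per kb) and Ccl9 (28.2 ± 8.62 CPM per kb). In WT p38+/+ mice Cxcl16 (28.2 ± 2.40 CPM per kb) and Ccl9 (28.0 ± 3.77 CPM per kb) stood above Ccl4 (17.0 ± 4.52 CPM per kb) and Ccl3 (15.2 ± 8.99 CPM per kb). Ccl3 and Ccl4, and likewise Cxcl16 and Ccl9, differed from each other by less than the spread between mice, as did Ccl12 and Ccl3 in AD p38KO mice. Ccl2, Ccl5 and Ccl7 were the lowest, averaging 4.11, 2.59 and 1.27 CPM per kb over the 16 libraries.

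**Figure D1:**
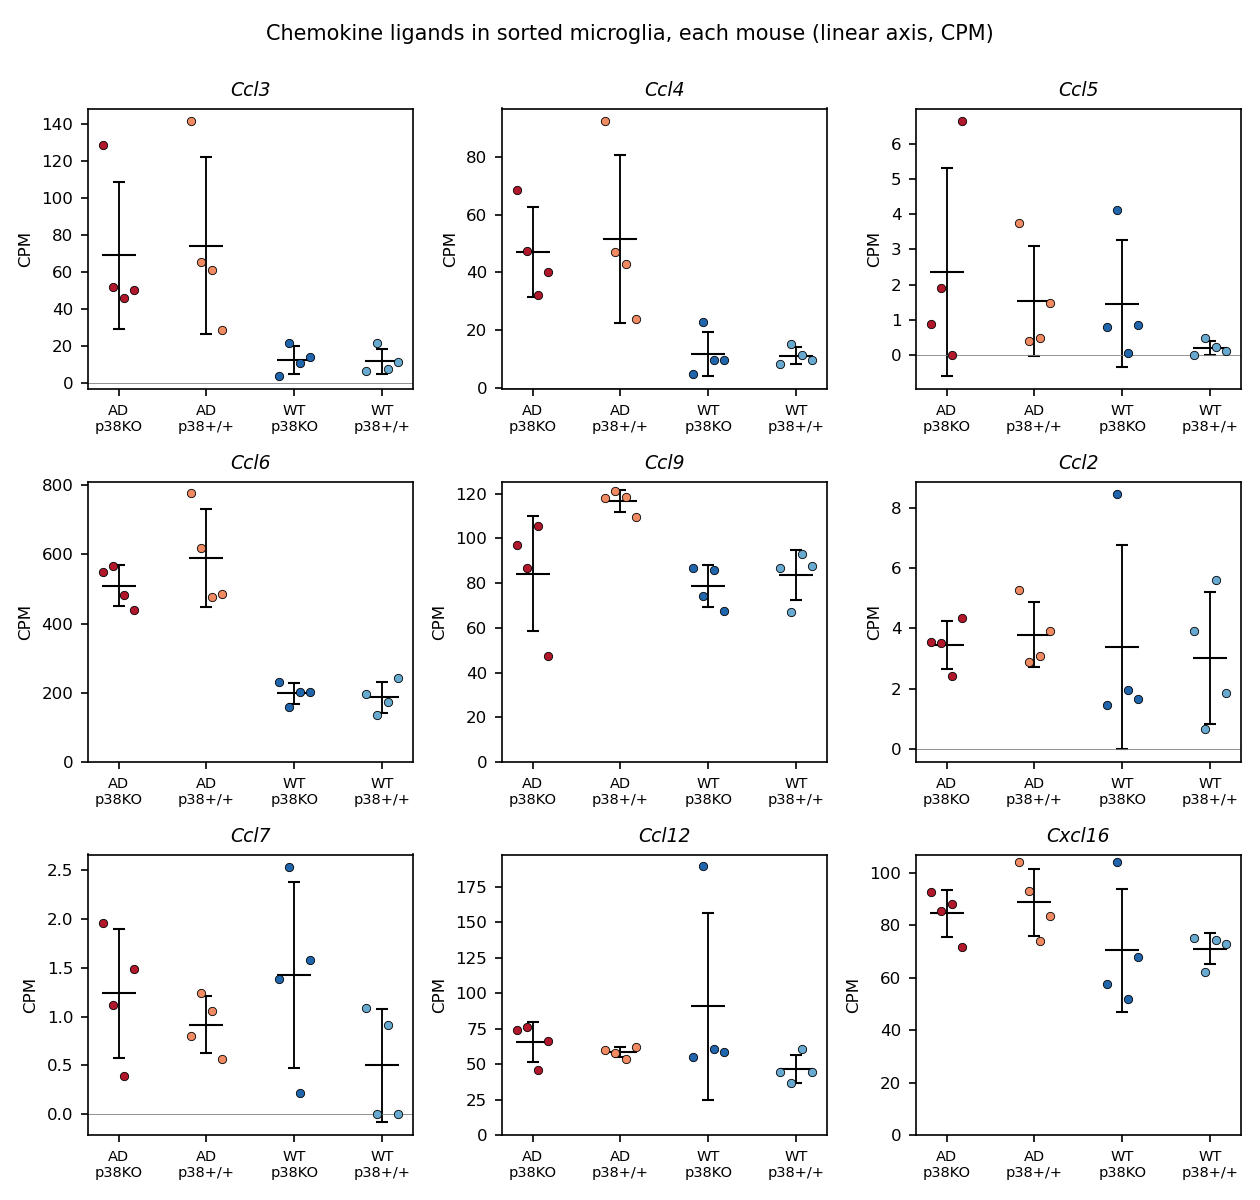
CPM of each of the 9 chemokine ligands (vertical axis, linear and taking in 0) in AD p38KO, AD p38+/+, WT p38KO and WT p38+/+ microglia (horizontal axis). Each point is 1 mouse, the bar is the group mean and the error bar the SD (n = 4). Ccl3, Ccl4 and Ccl6 show no overlap between AD and WT mice of the same p38 genotype, and in the Ccl12 panel WT p38KO mouse 2 stands alone at 189.5 CPM.

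The first question was how the ligands differed between mice with and without the amyloid transgenes. Ccl3, Ccl4 and Ccl6 were higher in AD mice with either p38 genotype, by between 2.57-fold and 5.88-fold, and the other 6 did not pass the test. The limma test was run on log2(CPM + 0.5) over all 13912 genes with Benjamini-Hochberg adjustment, and fold changes are on that scale. Between AD p38+/+ and WT p38+/+ mice, 3 of the 9 ligands were called higher, against 0.359% of all tested genes. Between AD p38KO and WT p38KO mice the same 3 were called higher, against 0.244% of all genes. Over both p38 genotypes together the same 3 were called, against 0.927% of all genes called higher. The ligands were chosen with earlier results of these data known, so these shares are set side by side as a description only. The median log2 fold change of the 9 ligands was 0.69 between AD p38+/+ and WT p38+/+ mice, beside -0.01 for all genes. Between AD p38KO and WT p38KO mice it was 0.32, beside -0.04 for all genes. In bulk samples, fewer cells of a type and less RNA per cell cannot be told apart.

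Ccl3 (MIP-1α) had 129, 51.8, 45.8 and 50.4 CPM in the 4 AD p38KO mice, against 3.58, 21.7, 10.9 and 14.0 CPM in the 4 WT p38KO mice. It had 142, 65.4, 61.3 and 28.9 CPM in AD p38+/+ mice, against 6.38, 21.5, 7.59 and 11.1 CPM in WT p38+/+ mice. Every AD mouse was thus above every WT mouse, and mouse 1 was the highest in both AD groups. The log2 fold change was 2.51 (SE 0.52, limma adjusted p = 0.0435) between AD p38KO and WT p38KO mice. It was 2.56 (SE 0.52, limma adjusted p = 0.0378) between AD p38+/+ and WT p38+/+ mice. Both differences reached the smallest p that 4 mice against 4 allow in a two-sided exact permutation test, 0.0286.

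Ccl4 (MIP-1β) lies 13228 bases from Ccl3 and followed it closely. Its values were 68.6, 47.4, 32.1 and 40.3 CPM in AD p38KO mice, against 4.88, 22.7, 9.71 and 9.53 CPM in WT p38KO mice. In AD p38+/+ mice they were 92.3, 47.0, 42.9 and 23.8 CPM, against 8.41, 15.3, 11.4 and 9.70 CPM in WT p38+/+ mice. Again the AD and WT mice of each p38 genotype did not overlap, and mouse 1 led both AD groups. The log2 fold change was 2.11 (SE 0.40, limma adjusted p = 0.0294) between AD p38KO and WT p38KO mice and 2.02 (SE 0.40, limma adjusted p = 0.0347) between AD p38+/+ and WT p38+/+ mice. Over both p38 genotypes, Ccl3 rose 5.79-fold (limma adjusted p = 0.000811) and Ccl4 rose 4.19-fold (limma adjusted p = 0.000521).

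The single-genotype calls of Ccl3 and Ccl4 lay near the threshold, whereas those over both p38 genotypes held without any 1 library. Between AD p38+/+ and WT p38+/+ mice, the Ccl3 call was lost on leaving out AD p38KO mouse 2, AD p38+/+ mouse 1, 2 or 3, WT p38KO mouse 3 or 4, or WT p38+/+ mouse 1, 3 or 4 (limma adjusted p 0.0544 to 0.207). The Ccl4 call was lost without the same libraries except WT p38KO mouse 3 (limma adjusted p 0.0513 to 0.169). Between AD p38KO and WT p38KO mice, the Ccl3 call was lost without any 1 of the 4 AD p38KO mice, AD p38+/+ mouse 2 or 3, WT p38KO mouse 1, 3 or 4, or WT p38+/+ mouse 3 or 4 (limma adjusted p 0.0526 to 0.142). The Ccl4 call there was lost without AD p38KO mouse 1 or 2, or WT p38KO mouse 1, 3 or 4 (limma adjusted p 0.0579 to 0.104). Without AD p38KO mice 1 and 4 together, the log2 fold change between AD p38KO and WT p38KO mice was 2.15 for Ccl3 (limma adjusted p = 0.268) and 1.89 for Ccl4 (limma adjusted p = 0.190), and neither was called. Mouse 1 of both AD groups was female. With sex as a covariate, the log2 fold change of Ccl3 between AD p38KO and WT p38KO mice was 2.60 (limma adjusted p = 0.0418) and that of Ccl4 was 2.21 (limma adjusted p = 0.0185).

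Ccl5 (RANTES), an inflammatory ligand and mostly a product of lymphocytes and activated macrophages, was scarce and uneven. It had 0.902, 1.91, 0 and 6.63 CPM in AD p38KO mice, against 0.814, 4.12, 0.0720 and 0.860 CPM in WT p38KO mice (exact permutation p = 0.6). In AD p38+/+ mice it had 3.75, 0.414, 0.492 and 1.49 CPM, against 0, 0.487, 0.228 and 0.129 CPM in WT p38+/+ mice (exact permutation p = 0.0571). In 5 of the 16 libraries it was under the limit that a count of 0 allows, and the groups overlapped in both comparisons. The highest Ccl5 value was in AD p38KO mouse 4, a library that stood apart from the rest.

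Ccl6 was the most precise result of the set. This Ccr1 ligand had 551, 568, 482 and 439 CPM in AD p38KO mice, against 232, 159, 203 and 202 CPM in WT p38KO mice. It had 778, 619.7, 477 and 485 CPM in AD p38+/+ mice, against 196, 136, 173 and 244 CPM in WT p38+/+ mice. The lowest AD value of either p38 genotype was well above the highest WT value. Ccl6 was 2.57-fold higher in AD p38KO than in WT p38KO mice (log2 fold change 1.36, SE 0.18, limma adjusted p = 0.00115). The ratio was 3.15-fold between AD p38+/+ and WT p38+/+ mice (log2 fold change 1.65, SE 0.18, limma adjusted p = 0.0001). It stayed called in both comparisons without any 1 library, and without AD p38KO mice 1 and 4 together (log2 fold change 1.41, limma adjusted p = 0.0125, AD p38KO against WT p38KO).

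Ccl9, the neighbouring Ccr1 ligand, did not pass the test between AD and WT mice. Its values in AD p38+/+ mice, 118.1, 120.9, 118.3 and 109.7 CPM, were all above those in WT p38+/+ mice, which were 86.7, 67.2, 92.8 and 87.7 CPM. The log2 fold change was 0.49 (SE 0.19, 95% interval 0.09 to 0.89) with an unadjusted p of 0.0196 and a limma adjusted p of 0.564. AD p38KO mice, with 97.1, 86.7, 105 and 47.2 CPM, overlapped WT p38KO mice, with 86.6, 74.0, 85.9 and 67.5 CPM. Their log2 fold change was 0.04 (SE 0.19, limma adjusted p = 0.969). Leaving out AD p38KO mouse 4, the lowest, made the pooled AD against WT difference a call, at a log2 fold change of 0.39 (limma adjusted p = 0.0327) against 0.27 with all libraries (limma adjusted p = 0.442).

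The 3 Ccr2 ligands showed no call. Ccl12, by far the most abundant of them, had 74.0, 76.4, 45.6 and 66.2 CPM in AD p38KO mice, against 55.0, 189.5, 60.5 and 58.3 CPM in WT p38KO mice. The value of WT p38KO mouse 2 alone put the WT p38KO mean above the AD p38KO mean, and the groups overlapped (exact permutation p = 0.8286). In AD p38+/+ mice Ccl12 had 60.2, 57.9, 53.4 and 62.0 CPM, against 44.7, 36.6, 60.6 and 44.7 CPM in WT p38+/+ mice (exact permutation p = 0.114). Ccl2 (MCP-1), the main monocyte attractant of this group, averaged 3.44 ± 0.790 CPM in AD p38KO mice and 3.38 ± 3.39 CPM in WT p38KO mice. It averaged 3.79 ± 1.08 CPM in AD p38+/+ mice and 3.02 ± 2.19 CPM in WT p38+/+ mice. Ccl7 (MCP-3) stayed at or under 2.53 CPM in all 16 libraries and was under the limit that a count of 0 allows in 3 of them. The groups overlapped for Ccl2 and Ccl7 in every comparison made.

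Cxcl16, the only CXC member analysed, did not pass the test between AD and WT mice. It had 92.7, 85.4, 88.2 and 71.9 CPM in AD p38KO mice, against 57.7, 104.2, 51.8 and 68.1 CPM in WT p38KO mice. In AD p38+/+ mice it had 103.97, 93.2, 74.1 and 83.7 CPM, against 75.1, 62.2, 74.4 and 72.9 CPM in WT p38+/+ mice. The mean was higher in AD mice of each p38 genotype, but the groups overlapped. The log2 fold change was 0.31 (95% interval -0.06 to 0.68) in each comparison. The limma adjusted p was 0.5999 between AD p38KO and WT p38KO mice and 0.792 between AD p38+/+ and WT p38+/+ mice. Over both p38 genotypes the log2 fold change was also 0.31 (95% interval 0.05 to 0.57). Its unadjusted limma p was 0.0228 and its limma adjusted p 0.315.

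Counted over mice alone, 4 ligands (Ccl3, Ccl4, Ccl6 and Ccl9) were higher in all 4 AD p38+/+ mice than in any WT p38+/+ mouse, against 3.36% of all tested genes. Between AD p38KO and WT p38KO mice the count was 3 (Ccl3, Ccl4 and Ccl6), against 2.6% of all genes. These counts too are a description, because the ligands were chosen with earlier results known.

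**Figure D2:**
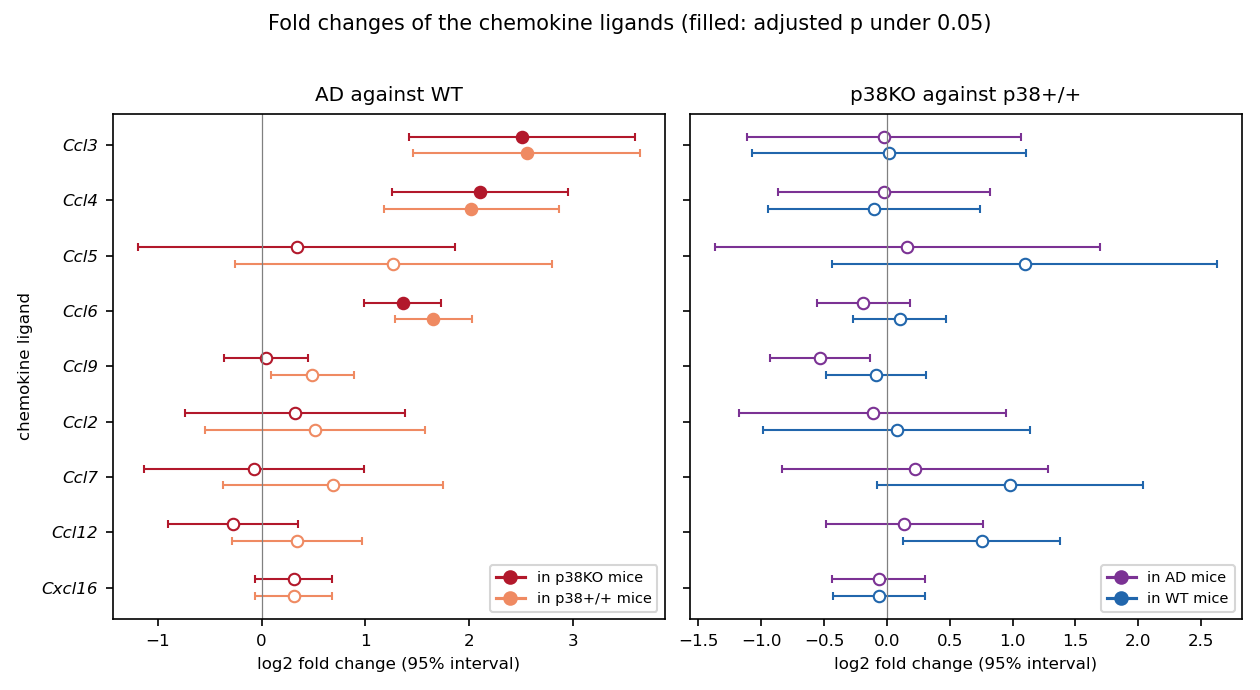
Log2 fold changes of the 9 ligands from the limma fit on log2(CPM + 0.5), with 95% intervals (horizontal axis, where the line at 0 marks equal levels). The left panel sets AD against WT within p38KO and within p38+/+ mice, the right panel p38KO against p38+/+ within AD and within WT mice, and filled points have an adjusted p under 0.05. Ccl3, Ccl4 and Ccl6 are filled on the left for both p38 genotypes, and no point is filled on the right.

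The second question was whether loss of p38α altered these messages. No ligand was called in either background. Between AD p38KO and AD p38+/+ mice, limma called 0 of 9 ligands, against 0.0503% of all genes (7 genes). An unadjusted limma p under 0.05 was held by 1 ligand, Ccl9, against 6.99% of all genes. Between WT p38KO and WT p38+/+ mice it called 0 of 9, against 0.00719% of all genes (1 gene). Here 1 ligand, Ccl12, had an unadjusted limma p under 0.05, against 3.53% of all genes. Over both backgrounds together it called 0 of 9, against 0.0791% of all genes. At an unadjusted limma p under 0.05 there were 2 ligands, against 5.90% of all genes. The median log2 fold change of the ligands was -0.02 between AD p38KO and AD p38+/+ mice, the same as that of all genes, and 0.08 between WT p38KO and WT p38+/+ mice, beside 0.02 for all genes.

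Ccl3 averaged 69.2 ± 39.8 CPM in AD p38KO mice and 74.3 ± 47.8 CPM in AD p38+/+ mice. Its log2 fold change was -0.02 with a 95% interval of -1.11 to 1.07. Ccl4 averaged 47.1 ± 15.7 CPM in AD p38KO mice and 51.5 ± 29.0 CPM in AD p38+/+ mice, a log2 fold change of -0.02 with an interval of -0.87 to 0.82. Ccl6 was bounded more tightly. It averaged 510.0 ± 59.8 CPM in AD p38KO mice and 590.1 ± 142 CPM in AD p38+/+ mice, a log2 fold change of -0.19 with an interval of -0.56 to 0.18. In WT p38KO against WT p38+/+ mice the means of these 3 genes were also close, with exact permutation p values of 0.857 for Ccl3, 0.886 for Ccl4 and 0.714 for Ccl6.

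Ccl9 was the 1 ligand whose AD p38KO and AD p38+/+ values did not overlap. It averaged 84.1 ± 25.7 CPM in AD p38KO mice and 117 ± 4.91 CPM in AD p38+/+ mice, and the highest AD p38KO mouse, at 105 CPM, was below the lowest AD p38+/+ mouse. This is 1 of 9 ligands, against 3.34% of all tested genes without overlap in either direction. The log2 fold change was -0.53 (SE 0.19, 95% interval -0.93 to -0.13), with an unadjusted p of 0.0121 and a limma adjusted p of 0.624. Without AD p38KO mouse 4, which had 47.2 CPM and stood apart from the other libraries, it was -0.28. WT p38KO mice averaged 78.5 ± 9.35 CPM of Ccl9 and WT p38+/+ mice 83.6 ± 11.3 CPM, a log2 fold change of -0.09 (95% interval -0.49 to 0.31). The difference of the p38KO effect between AD and WT mice was itself tested and gave -0.45 on the log2 scale (SE 0.27, 95% interval -1.01 to 0.12, limma adjusted p = 1.00).

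Ccl12 was the ligand with an unadjusted p under 0.05 between WT p38KO and WT p38+/+ mice. It averaged 90.8 ± 65.8 CPM in WT p38KO mice and 46.7 ± 10.03 CPM in WT p38+/+ mice, a log2 fold change of 0.76 (SE 0.30, unadjusted p 0.0205, limma adjusted p = 1). Without WT p38KO mouse 2 the log2 fold change was 0.33. None of the 9 ligands was without overlap between these groups, against 2.72% of all genes. WT p38KO mouse 2, a female, had the highest value of all 16 libraries for Ccl2 (8.45 CPM), Ccl7 (2.53 CPM), Ccl12 (189.5 CPM) and Cxcl16 (104.2 CPM). It also led for Cxcl10 (36.1 CPM), an interferon-induced ligand of Cxcr3.

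The interaction of the AD background with p38KO was called by limma for 0 of 9 ligands, against 0% of all genes. No ligand had an unadjusted limma p under 0.05, against 3.92% of all genes. Its estimate was -0.04 (95% interval -1.58 to 1.5005) for Ccl3, 0.08 (-1.11 to 1.28) for Ccl4 and -0.29 (-0.82 to 0.23) for Ccl6 on the log2 scale. The 4 comparisons between groups share mice, so they are not separate experiments.

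To ask which ligands varied together between mice of the same group, the group mean was removed from log2(CPM + 0.5) and the 36 pairs were correlated over the 16 mice. The strongest pair was Ccl3 and Ccl4, with r = 0.92 (permutation p = 0.0002, Benjamini-Hochberg adjusted 0.0072) and rho = 0.82 (adjusted permutation p = 0.0468). Without AD p38+/+ mouse 1 and WT p38KO mouse 1, the mice farthest from the median of Ccl3, r was 0.85 (permutation p = 0.00207, adjusted 0.0745). Ccl2 and Ccl12 had r = 0.84 (permutation p = 0.00143, adjusted 0.0257) and rho = 0.81 (adjusted permutation p = 0.0475). That relation fell to r = 0.64 (adjusted permutation p = 0.371) without WT p38KO mouse 2 and WT p38+/+ mouse 2, and rested in part on them. Within groups no relation of Ccl6 to Ccl3 (r = -0.03, permutation p = 0.927) or to Ccl4 (r = -0.02, permutation p = 0.951) was found. All 3 were nevertheless higher in AD mice, and with 16 mice a moderate relation could have been missed. Ccl5 and Ccl9 had the lowest value, r = -0.69 (adjusted permutation p = 0.151), and the median over the 36 pairs was 0.31.

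**Figure D3:**
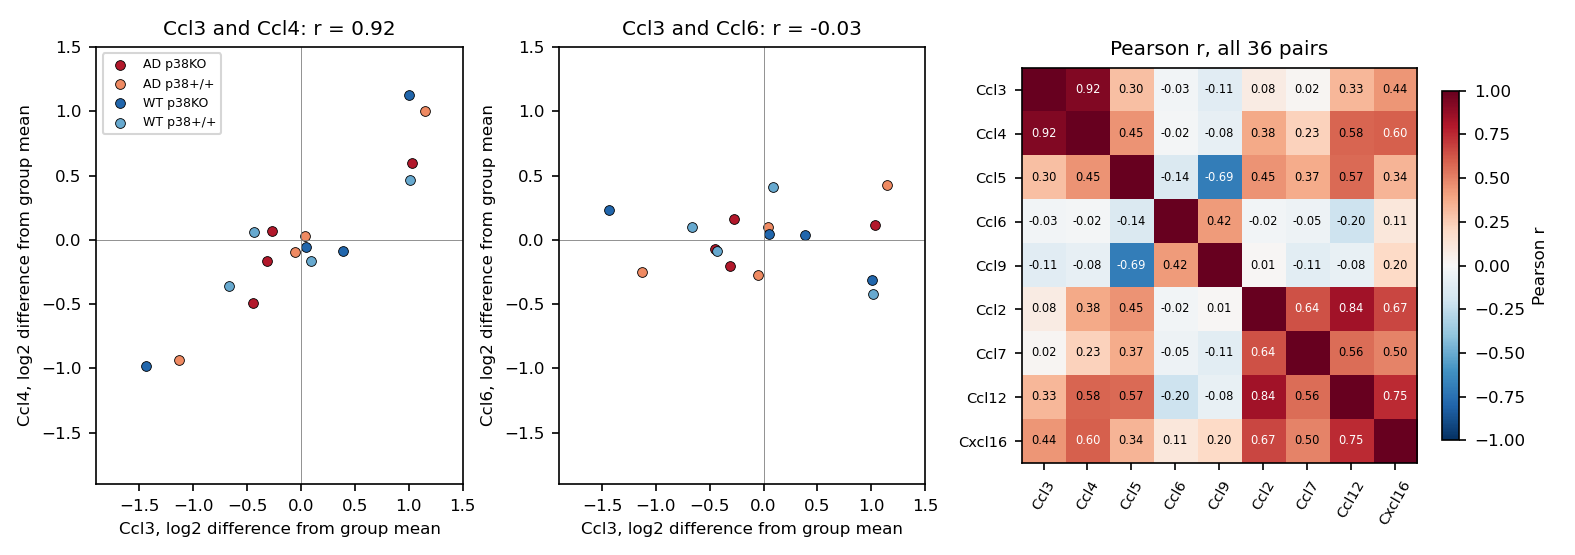
Deviation from the group mean of log2(CPM + 0.5) for Ccl3 against Ccl4 and for Ccl3 against Ccl6 (1 point per mouse, coloured by group), and Pearson's r of all 36 pairs of ligands over the 16 mice as a heat map. Ccl3 and Ccl4 fall along a line (r = 0.92), Ccl3 and Ccl6 do not (r = -0.03).

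Across all 16 libraries without removal of group means, the tested genes with the pattern most like each ligand were as follows, with Pearson's r of log2(CPM + 0.5) given as a description. For Ccl3 they were Ccl4 (0.98), Ch25h (0.93), Fam20c (0.93), Gusb (0.93) and Pea15a (0.92). For Ccl4 they were Ccl3 (0.98), Fam20c (0.95), Ch25h (0.95), Gnas (0.94) and Ank (0.94). Both had thus Ch25h, which makes 25-hydroxycholesterol, and the secretory pathway kinase Fam20c among their nearest 5. For Ccl6 the nearest were Baiap2l2 (0.97), the cystatin Cst7 (0.95), the actin-capping protein Capg (0.95), the lysosomal protease Ctsz (0.95) and Cox6a2 (0.95), none of them shared with Ccl3 or Ccl4. For the low Ccl2 they were Rpl31 (0.87), Rps16 (0.85), Gm5805 (0.83), Rps20 (0.82) and H3f3a-ps2 (0.80), largely ribosomal protein genes and pseudogenes. These correlations take in the difference between AD and WT mice.

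Ccl6 reads were split over transcripts in the deposited transcript table, a comparison chosen after its values were seen. The coding transcript took 70.1% of Ccl6 CPM over the 16 libraries and a transcript with a retained intron took 29.7%. The retained-intron share averaged 32.1 ± 2.90% in AD p38KO mice and 25.9 ± 2.35% in WT p38KO mice (exact permutation p = 0.0571). It averaged 29.4 ± 3.11% in AD p38+/+ mice and 25.5 ± 3.54% in WT p38+/+ mice (exact permutation p = 0.2). The remaining Ccl6 transcripts alone gave 345 ± 30.0 CPM in AD p38KO mice and 147 ± 24.0 CPM in WT p38KO mice (ratio 2.34, exact permutation p = 0.0286). They gave 414 ± 80.9 CPM in AD p38+/+ mice and 139 ± 31.8 CPM in WT p38+/+ mice (ratio 2.98, exact permutation p = 0.0286). The higher Ccl6 of AD mice was thus present without the retained-intron transcript.

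The receptors Ccr1, Ccr2 and Cxcr6 were set beside their ligands. Ccr1, the receptor of Ccl6 and Ccl9, averaged 38.9 CPM in AD p38KO and 40.5 CPM in AD p38+/+ mice, and 35.7 CPM in WT p38KO and 42.8 CPM in WT p38+/+ mice. Ccr2, the monocyte receptor, averaged 7.45 CPM in AD p38KO and 6.17 CPM in AD p38+/+ mice, and 6.15 CPM in WT p38KO and 8.27 CPM in WT p38+/+ mice. Neither Ccr1 nor Ccr2 was called. Cxcr6, the receptor of Cxcl16, averaged 0.416 CPM, was 0 in 7 libraries and was not tested. Cx3cr1, whose ligand is not among the 9 and which lost 1 copy to the Cre, was lower by a log2 fold change of -1.08 between AD p38KO and AD p38+/+ mice and -1.17 between WT p38KO and WT p38+/+ mice.

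**Figure D4:**
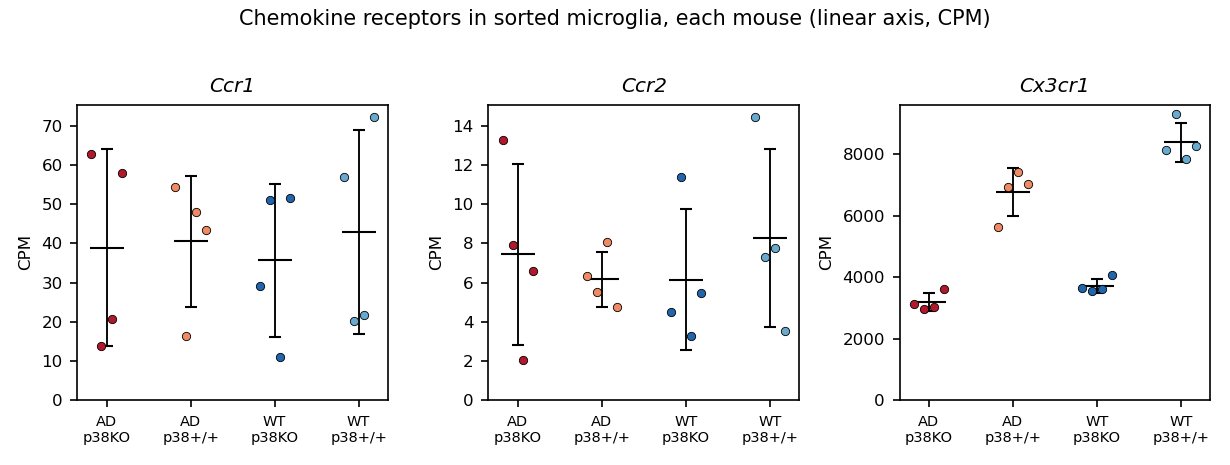
CPM of the receptors Ccr1, Ccr2 and Cx3cr1 (vertical axis, linear and starting at 0) in AD p38KO, AD p38+/+, WT p38KO and WT p38+/+ microglia. Each point is 1 mouse, the bar is the group mean and the error bar the SD (n = 4), and Cx3cr1 is lower in p38KO mice of both backgrounds without overlap.

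Calls in gene lists of the wider pathway were few in number. Over both p38 genotypes, 2 of 10 processing genes and 2 of 10 genes often induced with Ccl3 and Ccl4 were called higher in AD mice. Those shares were above that of all genes, but the lists were chosen with earlier results of these data known. At most 0.927% of all tested genes were called higher between AD and WT mice, and at most 0.0791% were called between p38 genotypes. A short list without a call is near that share. Of 28 other chemokine ligands, 8 were tested and limma called 0, led in level by Ccl25 (25.2 CPM) and Pf4 (7.22 CPM). Their median log2 fold change was -0.44 between AD p38KO and AD p38+/+ mice and 0.08 between the WT groups. Between AD and WT mice it was 0.30 with p38+/+ and 0.21 with p38KO. Neither 23 genes of receptor signalling (Rac1 and Rgs2 the most abundant), 18 of the NF-kB system (Rela, Rel), nor 21 of the p38 branch that sets message stability (Mknk1, Zfp36l2) had a call in any comparison. Among 10 proteases and other genes that cut or process chemokines, the lysosomal protease Ctsl had a pooled AD against WT log2 fold change of 0.41 (limma adjusted p = 0.0115, and 0.0535 without AD p38KO mice 1 and 4) and the dipeptidyl peptidase Dpp7 one of 0.48 (limma adjusted p = 0.0477), a call that was lost in 21 of the alternatives. Among 10 cytokines and surface proteins often induced with Ccl3 and Ccl4, Csf1, the growth factor of macrophages, was the only one called within both p38 genotypes. It averaged 82.0 ± 11.4 CPM in AD p38KO mice and 19.0 ± 4.30 CPM in WT p38KO mice, which on the log2 scale is 2.10 higher (limma adjusted p = 0.00374). Without AD p38KO mice 1 and 4 that difference was 2.10 as well (limma adjusted p = 0.0422). Csf1 averaged 80.4 ± 41.8 CPM in AD p38+/+ mice and 18.5 ± 6.99 CPM in WT p38+/+ mice, a log2 fold change of 2.02 (limma adjusted p = 0.00511). The surface protein Cd83 rose by a log2 fold change of 0.39 over both p38 genotypes (limma adjusted p = 0.0240). That call was lost without AD p38KO mouse 2, AD p38+/+ mouse 1, or WT p38KO mouse 3 or 4 (limma adjusted p 0.0526 to 0.0628), and with the replicate block and sex. Of 21 immediate early genes, which rise within minutes of a stimulus and also when tissue is dissociated, only the zinc finger factor Egr2 was called. Its pooled log2 fold change was 2.10 (limma adjusted p = 0.00669), with means of 18.5 CPM in AD p38KO and 4.02 CPM in WT p38KO mice, and 9.42 CPM in AD p38+/+ and 2.16 CPM in WT p38+/+ mice. That call was kept in all 29 alternatives, leaving out AD p38KO mice 1 and 4 among them. The more abundant Jun and Rhob were not called.

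Markers of other cells that the gate could hold were far below the microglial ones. Border macrophage markers, led by Stab1 and Mrc1, summed to 357 to 602 CPM in AD p38KO, 449.5 to 630.0 CPM in AD p38+/+, 511 to 679 CPM in WT p38KO and 377 to 827 CPM in WT p38+/+ mice, overlapping in all 4 groups. The 4 of 12 monocyte and granulocyte markers analysed summed to 4.59 to 25.2 CPM in AD p38KO, 6.01 to 11.003 CPM in AD p38+/+, 3.83 to 15.4 CPM in WT p38KO and 5.79 to 17.0 CPM in WT p38+/+ mice. The 5 of 15 lymphocyte markers analysed summed to 13.9 to 28.3 CPM in AD p38KO, 21.04 to 34.0 CPM in AD p38+/+, 31.1 to 38.4 CPM in WT p38KO and 18.0 to 31.3 CPM in WT p38+/+ mice. Nearly all of this was the B cell receptor component Cd79b (27.1 CPM on average), while Cd3e, Gzmb, Klrb1c and Cd79a averaged under 1 CPM. Their part in the ligand levels was not tested. The sort for P2ry12, a receptor that microglia near plaques are known to lose, set which cells could contribute.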

How the data were processed

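RNA of CD11b+ P2ry12+ cells was sequenced in 16 libraries, 1 per mouse. The authors aligned the reads with STAR to mm10 and quantified them in Partek Flow (version 10.0.22.0828) against Ensembl 100, then deposited CPM per gene and per transcript to which they had added 0.0001. That constant was removed. Only 73.3 to 80.1% of low values were whole multiples of a single read (tolerance 0.05 reads), so counts were not recovered and limma (3.58.1, R 4.3.3) replaced the count test of the study. All 16 libraries entered 1 fit of 4 group means on log2(CPM + 0.5), with a trended prior, for the 13912 genes that reached 1 CPM in 4 or more libraries, and 6355 were set aside. Calls needed a two-sided Benjamini-Hochberg adjusted p under 0.05. Single values were compared by exact permutation (smallest p 0.0286, 4 against 4), pairs of ligands by 100000 draws within groups. Python 3.11.15, numpy 2.4.6, pandas 2.3.3, scipy 1.17.1 and matplotlib 3.10.9 were used, and the fit was tested on simulated data.

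The 10 members and the gene lists were chosen with earlier results of these data known. Genes named were all members, genes of a list that were called (at most the 4 with the smallest p) or were the 2 most abundant, the receptors of the members, and the 5 genes most correlated with Ccl2, Ccl3, Ccl4 and Ccl6. Alternatives were other pseudocounts, filters and scalings, sex, the S0 label and the replicate number as covariates, array weights, a fit of only the groups compared and each library left out. Leaving out AD p38KO mice 1 and 4 together, and the Ccl6 transcripts, were chosen after seeing the data. Replicates are separate mice. The protein sequences of the ligands were not used here. Some receptor, marker and sequence results are not reported here.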

Additional observations from a re-analysis of the deposited data

Results flagged for a closer look

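Of 36 sets of 4 mice (9 ligands in 4 groups), 4 held 1 mouse far from the other 3, its gap to the nearest exceeding the 95% critical value of Dixon's test, where chance gives about 1 in 20. WT p38KO mouse 2 had the highest Ccl12 of its group, 189.5 CPM, and also the highest Ccl2, 8.45 CPM. AD p38KO mouse 1 had the highest Ccl3 of its group, 129 CPM. WT p38+/+ mouse 2 had the lowest Cxcl16 of its group, 62.2 CPM.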

How the results depend on the processing

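Ccl6 was called in all 3 AD against WT comparisons under every alternative run, and Ccl3 and Ccl4 over both p38 genotypes likewise. Between AD p38+/+ and WT p38+/+ mice, only 1 ligand (Ccl6) was called with the values as deposited or with no filter, and 1 to 3 with 1 library left out. Between AD p38KO and WT p38KO mice, only 1 (Ccl6) was called with the values as deposited, in a fit of only the groups compared, or without AD p38KO mice 1 and 4 together (added after seeing the data), and 1 to 3 with 1 library left out. There the Ccl3 call was kept in 11 alternatives and lost in 19. The losses included a pseudocount of 0.1 CPM (limma adjusted p = 0.0512), no filter (0.0610) and array weights (0.0542). Between AD p38+/+ and WT p38+/+ mice the Ccl3 call was kept in 17 and lost in 13. Over all genes, the values as deposited gave 23 calls in place of 50 for AD p38+/+ against WT p38+/+, and 16 higher and 8 lower in place of 34 and 11 for AD p38KO against WT p38KO. The cause was not tested.

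Estimates near 0 changed sign. With 1 library left out, the log2 fold change of Ccl9 in AD p38KO against WT p38KO ran from -0.086 to 0.30. In AD p38KO against AD p38+/+, that of Ccl3 ran from -0.40 to 0.36 and that of Ccl4 from -0.33 to 0.31. The interaction ran from -0.52 to 0.34 for Ccl3 and from -0.24 to 0.46 for Ccl4. For Ccl3 it was 0.041 with sex as a covariate, and for Ccl4 -0.092 with the S0 label as a covariate and -0.13 without AD p38KO mice 1 and 4. Of the 36 ligand pairs, 2 passed the adjusted threshold (also by Spearman) and 0 without the 2 farthest mice.

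With the replicate number as a block, 2 ligands (Ccl4 and Ccl6) were called in each single-genotype AD comparison and 3 over both. Ccl3 had an adjusted p of 0.0613 (limma, p38+/+) and 0.0722 (limma, p38KO), and with sex added its interaction was 0.21. Same-numbered mice correlated weakly in their deviations (r -0.13 to 0.18 over 24 pairs of libraries, 2 of them over 0.1). In 9 of the 24 the number was the best match, including 4 of 4 between AD p38KO and AD p38+/+ and 3 of 4 between WT p38KO and WT p38+/+, a hint from the data and not the design. By the criterion of an r over 0.1 in every pair, the numbers were not taken to pair mice. Ccl5 was under the limit that a count of 0 allows in 5 libraries and Ccl7 in 3.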
